A study of Mus musculus with 8 samples.

Results

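The genes described here are 32 genes of fatty acid oxidation and of control by PPAR alpha, measured in the livers of TrxR1/Gsr-null and wild-type (WT) mice. They were chosen by function, with earlier results of these data known. They are 16 genes of mitochondrial oxidation, 7 of peroxisomal oxidation and the ketone body gene Bdh1. The other 8 are Ppara and targets or sensors of its pathway. All 32 had at least 1 probe set that the platform annotation pairs with that gene alone, 50 probe sets in all, among 12393 genes with such a probe set, and all 32 passed the filter on low values that left 7534 genes to test. The mice were 4-week-old females on the C57BL/6J background, 4 of each genotype, with 1 Affymetrix 3′ array for the liver of each animal. The TrxR1/Gsr-null group, called null below, is labelled as lacking TrxR1, the cytosolic thioredoxin reductase encoded by Txnrd1, and Gsr, glutathione reductase. The labels give neither the alleles, the deleted exons nor a Cre driver, and they do not say whether the mice were fed or fasted when the livers were taken in the morning. The series title names the Nrf2 response. The labels do not name fatty acid oxidation, so the question put to these genes is only whether their RNA differed between the genotypes.

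Fatty acids are burned in the liver in mitochondria, where carnitine carriers bring long chains across the inner membrane and a repeating set of dehydrogenases, hydratases and thiolases shortens them, and in peroxisomes, which take very long and branched chains. The acetyl-CoA that results can be turned into ketone bodies for other organs. PPAR alpha is a nuclear receptor that binds fatty acids, pairs with RXR on a direct repeat of a short hexamer in DNA, and in fasting turns on many genes of oxidation, ketogenesis and lipid handling in hepatocytes.

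The arrays showed the following before any comparison. Values are log2 expression, differences are null minus WT, and a gene was called when its Benjamini-Hochberg adjusted p over all genes tested was below 0.05 in limma, a linear model with a shared estimate of spread. The array medians lay between 3.56 and 3.78, and the interquartile ranges of WT replicate 3 (3.96) and WT replicate 4 (3.74) were narrower than those of the other 6 arrays (4.30 to 4.43). The Gsr probe set was 2.23-fold lower in null livers (7.16 ± 0.09 against 6.01 ± 0.22, SD, n = 4 each, limma adjusted p = 0.00397). The Txnrd1 probe set was higher (9.82 ± 0.17 against 11.92 ± 0.19, SD, n = 4 each, limma adjusted p = 0.000115); as the deleted part of Txnrd1 is not named, this probe set does not check the label. Of 10 hepatocyte markers 9 were measured, all above the low-value limit of 3.38 on every array; all 8 skeletal muscle markers measured were below it on every array, with 3.13 as the highest value. Of 7 adipocyte markers measured, 5 were below the limit on every array, among them Adipoq, Lep, Cidec and Lipe, while Fabp4 and Car3 were above it.

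None of the 32 genes was called, higher or lower, where 6.62% of the 7534 genes were called (4.47% higher and 2.15% lower). The smallest adjusted p was 0.0562, for Pdk4, and the largest 0.965, for Cpt2. At an unadjusted limma p below 0.05 there were 9 of 32, 3 higher and 6 lower, beside 22.9% of all genes. The null values lay wholly outside the WT values for 10 of the 32 genes, 8 below and 2 above, beside 16.6% of all genes. The differences were below 0 for 24 of 32 genes (75.0%), beside 39.9% of all genes, with a median of -0.23 beside 0.10 over all genes. They were small for most: 21 of 32 were under 0.5 log2 units in size, and 3 exceeded 1 log2 unit, for Acot1, Pdk4 and Fgf21. The 95% interval of the difference lay within 1 log2 unit on either side of 0 for 20 of the 32 genes (62.5%), beside 63.7% of all genes, so for these 20 genes a change larger than 2-fold lies outside the interval.

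**Figure D1:**
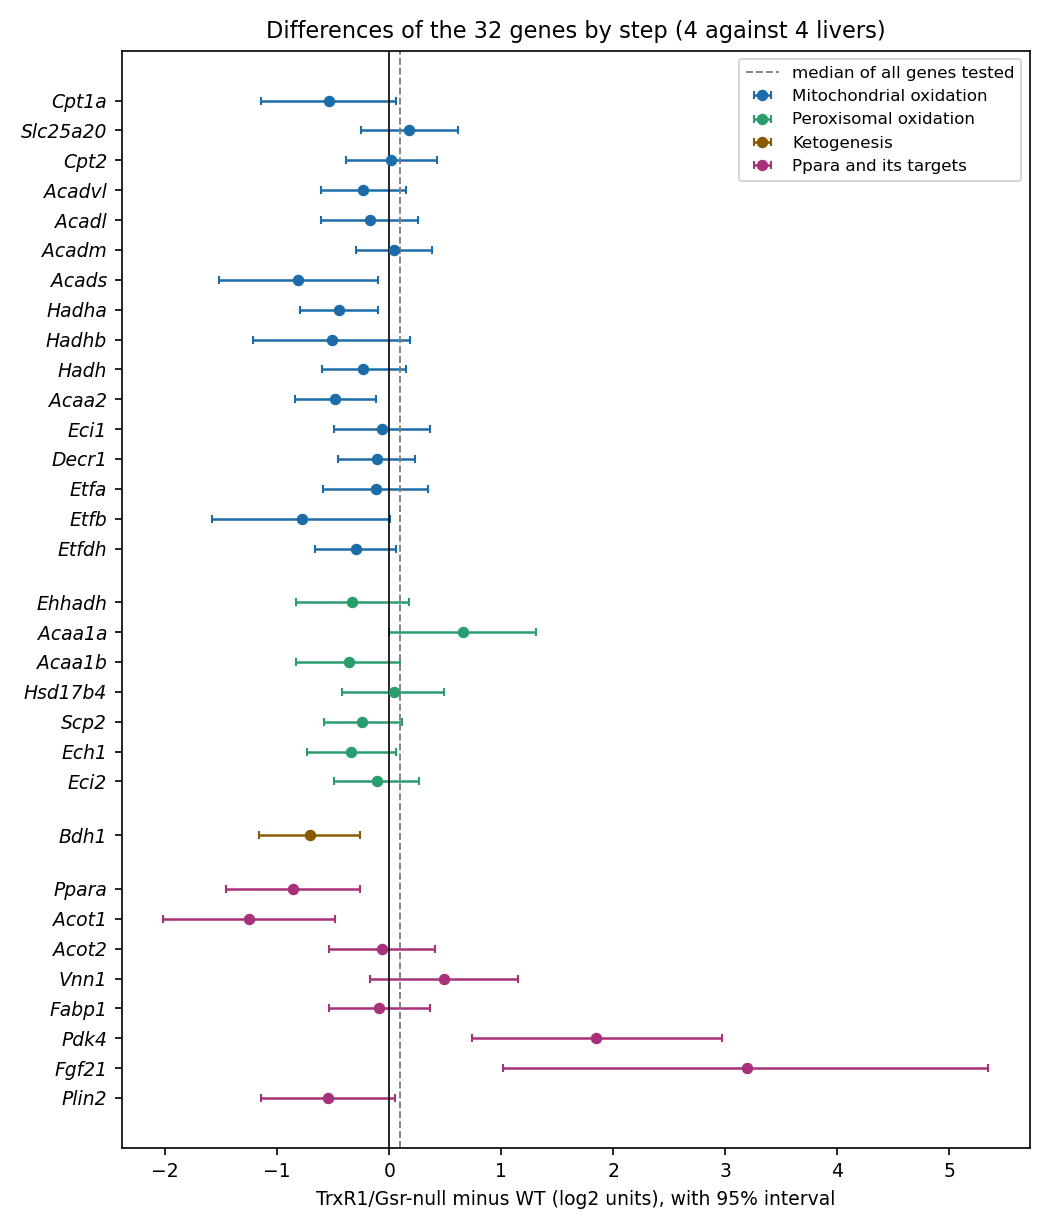
Difference between TrxR1/Gsr-null and WT livers (log2 units, horizontal axis) of the 32 genes, grouped by step; points are limma estimates from 4 against 4 livers, bars are 95% intervals and the dashed line is the median of all genes tested, 0.10. Of the 32 points 24 sit left of 0 and 21, on either side, lie within 0.5 log2 units of it. Pdk4 and Fgf21 sit far to the right.

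The median over all genes moved by -0.11 with quantile normalization and by -0.17 with centring of each array on the median of the tested genes, an alternative added after the data were seen. The members' median stood -0.32 from that of all genes as deposited and -0.24 after quantile normalization; centring takes the same amount from every gene of an array and so tells nothing about that gap. The number of members below 0 was 25 and 27 under these scalings, with the sign of Cpt2 and Hsd17b4 turning under both, Fabp1 under the first and Acadm under the second; under centring these turns come from a shift common to all genes. Over all genes the split of calls was 337 higher and 162 lower (67.5% higher) as deposited, 313 and 271 (53.6%) after quantile normalization and 285 and 288 (49.7%) after that centring. Marker lists of several liver cell types also had mostly negative differences. All 9 hepatocyte markers were below 0, from -0.73 to -0.19 with a median of -0.32 and none called, under every scaling. Their mean log2 value per array ran from 13.26 to 13.46 in WT and from 12.72 to 13.18 in null livers, without overlap; their summed level, in log2, ran from 16.64 to 16.86 and from 16.16 to 16.62. Of the endothelial markers 7 of 9 tested were below 0 (median -0.37), of the stellate cell markers 7 of 8 (median -0.25) and of the Kupffer cell markers 6 of 10 (median -0.15), with none called. The bile duct marker Epcam was called higher (0.94, limma adjusted p = 0.041), from WT values all below the low-value limit. Epcam passed the filter on low values only through the null livers, of which 1 was also below the limit. Its call was lost with low values set to the limit, and the limma adjusted p was up to 0.125 with a liver left out. Sox9, the only other bile duct marker tested, differed by -0.19 (limma adjusted p = 0.743). Krt7, Krt19 and Cftr were too low to test, so the list as a whole showed no common direction. In whole liver, fewer cells of a type and less RNA per cell cannot be told apart, and the part of these markers in the members' median was not tested.

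The 16 genes of mitochondrial oxidation included no call, had 13 differences below 0 and a median of -0.23, and ranged from -0.81 (Acads) to 0.18 (Slc25a20). Entry into the mitochondrion runs through Cpt1a, the carnitine palmitoyltransferase of the outer membrane and the rate-limiting step, then the carrier Slc25a20 and Cpt2 on the inside. Cpt1a measured 10.81, 10.09, 10.74 and 10.91 in WT replicates 1 to 4 and 9.76, 9.66, 10.37 and 10.59 in null replicates 1 to 4, a difference of -0.54 ± 0.27 (SE, limma adjusted p = 0.268). The groups overlapped, with null replicates 1 and 2 below every WT value and null replicates 3 and 4 among them. The other probe sets of Cpt1a, of a kind that can match several transcripts, differed by -0.15 and -0.25. Slc25a20 and Cpt2 differed by 0.18 and 0.02.

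The acyl-CoA dehydrogenases, which take the first step of each cycle for chains of decreasing length, had differences from -0.81 to 0.04. Acadvl (very long chains) differed by -0.23, Acadl (long) by -0.17 and Acadm (medium) by 0.04, with all 8 Acadm values between 11.18 and 11.36. Acads, for short chains, measured 7.64, 7.17, 7.41 and 8.47 in WT and 6.46, 6.91, 6.56 and 7.52 in null livers. Its difference was -0.81 ± 0.32 (SE, 1.75-fold), with an adjusted p of 0.167 in limma. Null replicate 4 lay within the WT range and the other null values below it. With the replicate number as a block in the limma model, Acads was the only member called, lower (adjusted p = 0.0474), where 9.21% of all genes were called. No label pairs the animals by this number, and some livers with different numbers deviated from their group means as much alike.

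The next steps are taken by the trifunctional protein, with its alpha subunit Hadha and beta subunit Hadhb, by Hadh for short chains, and by the thiolase Acaa2. Hadha measured 10.28, 10.19, 10.21 and 10.34 in WT and 9.85, 9.80, 9.91 and 9.66 in null livers. All 4 null values lay below all 4 WT values, and the difference was -0.45 ± 0.16 (SE, 1.37-fold, limma adjusted p = 0.117). Acaa2 measured 12.32, 12.33, 12.25 and 12.28 in WT against 11.83, 11.67, 12.03 and 11.71 in null livers, with no overlap. Its difference was -0.48 ± 0.16 (SE, limma adjusted p = 0.108), and its other probe sets differed by -0.37 and -0.44, with overlap in each. Hadhb differed by -0.51 with overlapping groups (10.65 to 11.64 against 10.05 to 11.20) and by -0.12 in its second probe set. Hadh differed by -0.23, and by -0.01 and -0.02 in its other probe sets.

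The remaining mitochondrial genes handle double bonds and electrons. Eci1 and Decr1, an isomerase and a reductase for unsaturated chains, differed by -0.06 and -0.11, with -0.49 in a second Decr1 probe set. The electron transfer flavoprotein, which collects electrons from the dehydrogenases, has the subunits Etfa (-0.12) and Etfb. Etfb measured 11.10, 10.85, 11.08 and 11.17 in WT and 9.19, 10.08, 11.15 and 10.66 in null livers, so its spread was 0.14 (SD) in WT and 0.84 in null livers. Null replicate 3 lay within the WT range and null replicate 1 lay far below them, and the difference of -0.78 ± 0.36 (SE) had an adjusted p of 0.229 in limma. Etfdh, which hands the electrons on to ubiquinone, differed by -0.30 ± 0.16 (SE, limma adjusted p = 0.31), with null values of 10.96 to 11.24 below WT values of 11.32 to 11.48.

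The 7 peroxisomal genes also included no call; 5 differences were below 0, the median was -0.24 and the range -0.36 to 0.66. Ehhadh, the bifunctional hydratase and dehydrogenase and a PPAR alpha target, differed by -0.33, with WT values of 10.92 to 11.44 and null values of 10.52 to 11.33. Scp2, whose longer product is the thiolase for branched chains, and Ech1, a dienoyl-CoA isomerase, had null values wholly below WT values (12.53 to 12.78 against 12.87 to 12.96, and 9.94 to 10.41 against 10.43 to 10.72), with differences of -0.24 and -0.34. The other Scp2 probe sets did not share this: they differed by -0.32, 0.40 and -0.03, each with overlap. Hsd17b4, the other bifunctional enzyme, differed by 0.04, and by 0.60 in its second probe set; Eci2, an enoyl-CoA isomerase, differed by -0.11.

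The peroxisomal 3-ketoacyl-CoA thiolases Acaa1a and Acaa1b pointed in opposite directions. Acaa1a measured 8.08, 8.39, 8.67 and 7.90 in WT and 9.55, 9.22, 8.37 and 8.52 in null livers, 0.66 ± 0.29 (SE, limma adjusted p = 0.215). Null replicates 1 and 2 lay above every WT value and null replicates 3 and 4 within the WT range. Acaa1b differed by -0.36 ± 0.21 (SE, limma adjusted p = 0.341). The genes are close paralogs and the Acaa1a probe sets are of the kind that can match several transcripts; 2 further probe sets that the annotation pairs with Acaa1a and Acaa1b together differed by -0.09 and -0.33. The difference between the paralogs is therefore uncertain.

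Bdh1, the mitochondrial dehydrogenase that makes beta-hydroxybutyrate from acetoacetate, was the only ketone body gene among the 32. It measured 10.75, 10.66, 11.07 and 11.30 in WT and 10.10, 10.15, 10.54 and 10.13 in null livers. All null values lay below all WT values, and the difference was -0.71 ± 0.20 (SE, 1.64-fold) with an adjusted p of 0.0653 in limma. A second probe set differed by -0.44 (8.43 ± 0.15 against 7.99 ± 0.59, SD, n = 4 each), with overlap.

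Ppara and its targets held the largest differences of the 32 genes, in both directions: 5 of these 8 genes were below 0, the median was -0.08 and the range ran from -1.25 to 3.19, with no call. Ppara itself measured 10.39, 10.19, 10.48 and 9.82 in WT and 8.62, 9.46, 9.74 and 9.61 in null livers. Every null value was below every WT value, with null replicate 1 the lowest. The difference was -0.86 ± 0.27 (SE, 1.81-fold), with an adjusted p of 0.0887 in limma and 0.0823 with the replicate block.

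Acot1, a cytosolic acyl-CoA thioesterase and a PPAR alpha target, measured 6.40, 7.94, 7.73 and 6.70 in WT and 6.20, 5.55, 5.90 and 6.11 in null livers. The WT livers were spread over a wide range, with replicates 2 and 3 high, and the null livers lay below all of them. The difference was -1.25 ± 0.34 (SE, 2.38-fold, limma adjusted p = 0.0595), and without WT replicate 1, the lowest WT liver, it was -1.51 with an adjusted p of 0.0211. With any other liver left out the adjusted p ran from 0.0573 (without WT replicate 4, -1.41) to 0.155 (without null replicate 2, -1.12). A probe set shared with the paralog Acot2 differed by -1.53 ± 0.42 (SE, limma adjusted p = 0.0653 over probe sets). Acot2, the mitochondrial thioesterase, was close to the low-value limit in its own probe set (3.23 to 3.94 over the 8 livers) and differed by -0.06.

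Pdk4, the kinase that switches off pyruvate dehydrogenase when fatty acids are burned, pointed the other way. It measured 5.78, 6.28, 5.23 and 4.42 in WT and 7.44, 6.37, 6.76 and 8.57 in null livers. All null values lay above all WT values, the nearest being null replicate 2 and WT replicate 2. The difference was 1.85 ± 0.50 (SE, 3.61-fold) with an adjusted p of 0.0562 in limma and 0.0805 with the replicate block; it was 2.14 (adjusted p = 0.0441) without WT replicate 2 and 1.42 (adjusted p = 0.111) without null replicate 4, and the adjusted p was up to 0.135 with another liver left out.

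Fgf21, a hormone that the liver secretes in fasting, measured 3.82, 1.66, 2.24 and 2.11 in WT and 4.35, 4.78, 4.33 and 9.13 in null livers. WT replicates 2 to 4 were below the low-value limit of 3.38, and null replicate 4 stood far above the other null livers, which lay just above WT replicate 1. The difference was 3.19 ± 0.97 (SE, limma adjusted p = 0.0834). Without null replicate 4 it was 2.03, with an adjusted p of 0.0422 (0.0622 to 0.172 with any other liver left out), and with values below the limit set to the limit it was 2.16, with an adjusted p of 0.2, so its size moves with that liver and with values too low to order. Beside these values, all 8 muscle markers measured and 5 of 7 adipocyte markers were below the limit in all livers. The adipocyte marker Fabp4 was well above it and lay lower in null livers without overlap (8.67 to 10.05 in WT, 7.96 to 8.64 in null livers; -0.93, limma adjusted p = 0.106, and 0.0309 with the replicate block), and Car3 differed by -0.16. The part of other tissues in the Pdk4, Fgf21 and Plin2 values was not tested.

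The other targets were closer together. Plin2, which coats lipid droplets, measured 12.05, 11.70, 11.93 and 11.94 in WT and 10.64, 11.39, 11.37 and 12.02 in null livers, -0.55 ± 0.27 (SE, limma adjusted p = 0.26). Null replicates 1 to 3 lay below the WT values and null replicate 4 within them. Vnn1, a pantetheinase strongly induced by PPAR alpha agonists, differed by 0.49 ± 0.30 (SE, limma adjusted p = 0.367), with 8.78 to 9.88 in WT and 9.37 to 10.53 in null livers. Fabp1, the fatty acid binding protein of hepatocyte cytosol, differed by -0.09, with WT values of 13.40 to 14.11 and null values of 13.59 to 13.94, and by -0.29 in its second probe set. Among null livers, replicate 4 was the highest for Vnn1, Pdk4, Fgf21 and Plin2.

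**Figure D2:**
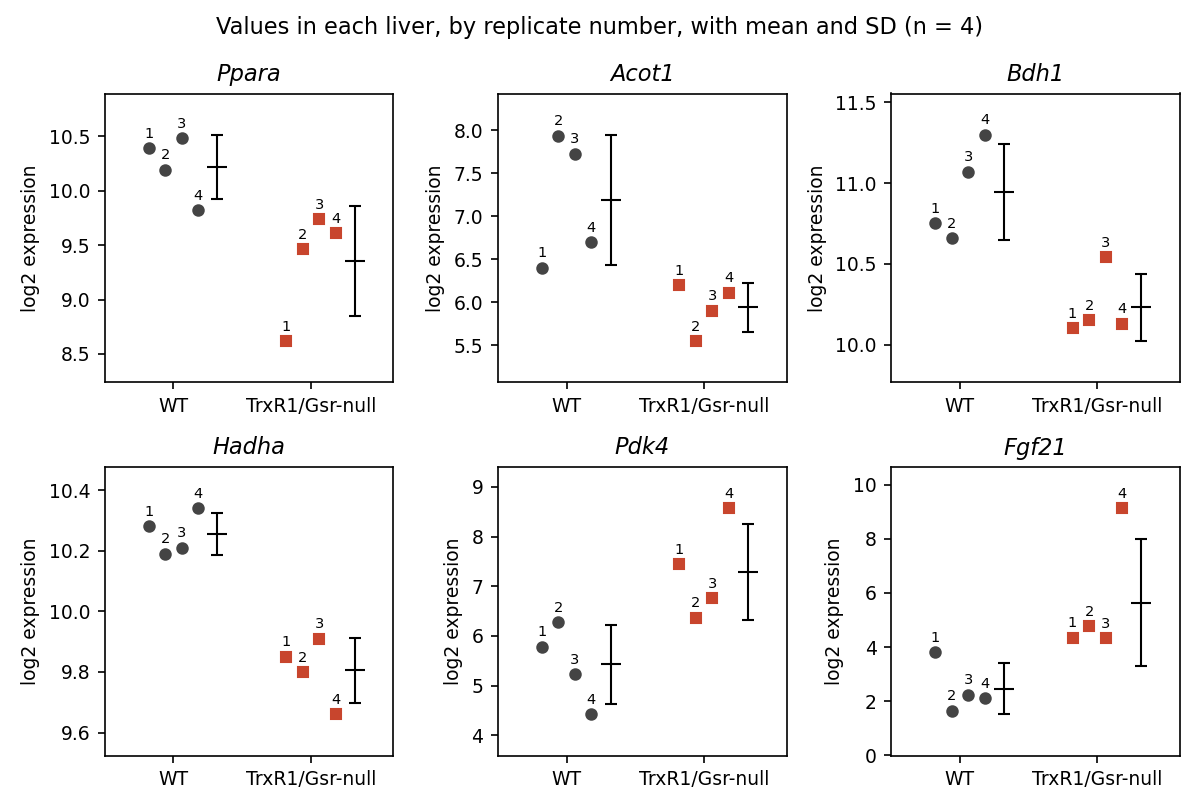
Log2 expression (vertical axis, scaled per panel) of Ppara, Acot1, Bdh1, Hadha, Pdk4 and Fgf21 in each liver; circles are WT, squares are TrxR1/Gsr-null, numbers are replicate numbers and bars are mean and SD of 4 livers. The genes shown are all among the 10 of 32 members whose groups do not overlap, beside 16.6% of all genes, and none was called. Ppara, Acot1, Bdh1 and Hadha are lower and Pdk4 and Fgf21 higher in null livers. The Fgf21 value of null replicate 4, 9.13, stands apart.

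At the level of probe sets, none of the members' probe sets was called in a limma fit over 13776 probe sets, of which 5.50% were called. The replicates fell into sets that the labels do not name: arrays of replicates 1 and 2 deviated from their group means alike, as did those of replicates 3 and 4. With these sets as a block in limma, Bdh1 and Acot1 (lower, adjusted p = 0.0199 and 0.0451) and Pdk4 (higher, 0.0436) were called, where 13.0% of all genes were. The sets were read from the deviations of these same arrays, so the adjusted p values of this fit may be too small. Within replicates 1 and 2 alone the differences were -0.58 for Bdh1, -1.29 for Acot1, -1.25 for Ppara and 0.87 for Pdk4, and within replicates 3 and 4 they were -0.85, -1.21, -0.47 and 2.84. The direction of these 4 differences was the same in each set; whether their sizes differed between the sets was not tested. With arrays weighted by their quality in limma, 7 members were called: Acot1, Ppara, Bdh1, Acaa2 and Hadha lower and Fgf21 and Acaa1a higher, where 13.4% of all genes were. Without WT replicates 3 and 4, the arrays with narrow distributions, no member was called, and the differences of Ppara, Acot1, Bdh1 and Pdk4 were -0.93, -1.22, -0.47 and 1.25.

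Liver by liver, the median over all 32 members was below 0 in the 4 null animals, while the medians of the steps varied. The median deviation of the 32 genes from their WT means was 0.01, 0.01, 0.03 and -0.05 in WT replicates 1 to 4 and -0.16, -0.15, -0.19 and -0.22 in null replicates 1 to 4. The same medians over all genes tested were 0.16, 0.12, -0.08 and -0.17 in WT and 0.10, 0.16, 0.06 and 0.10 in null livers. For the mitochondrial genes the null medians were -0.29, -0.26, -0.15 and -0.21, and for the peroxisomal genes -0.06, -0.14, -0.12 and -0.23. For Ppara and its targets they were 0.12, -0.06, -0.33 and 0.16, above 0 in null replicates 1 and 4. The deepest single values belonged to different genes in different livers: null replicate 1 held the lowest null value of Etfb, Ppara and Plin2, and null replicate 2 that of Acot1.

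**Figure D3:**
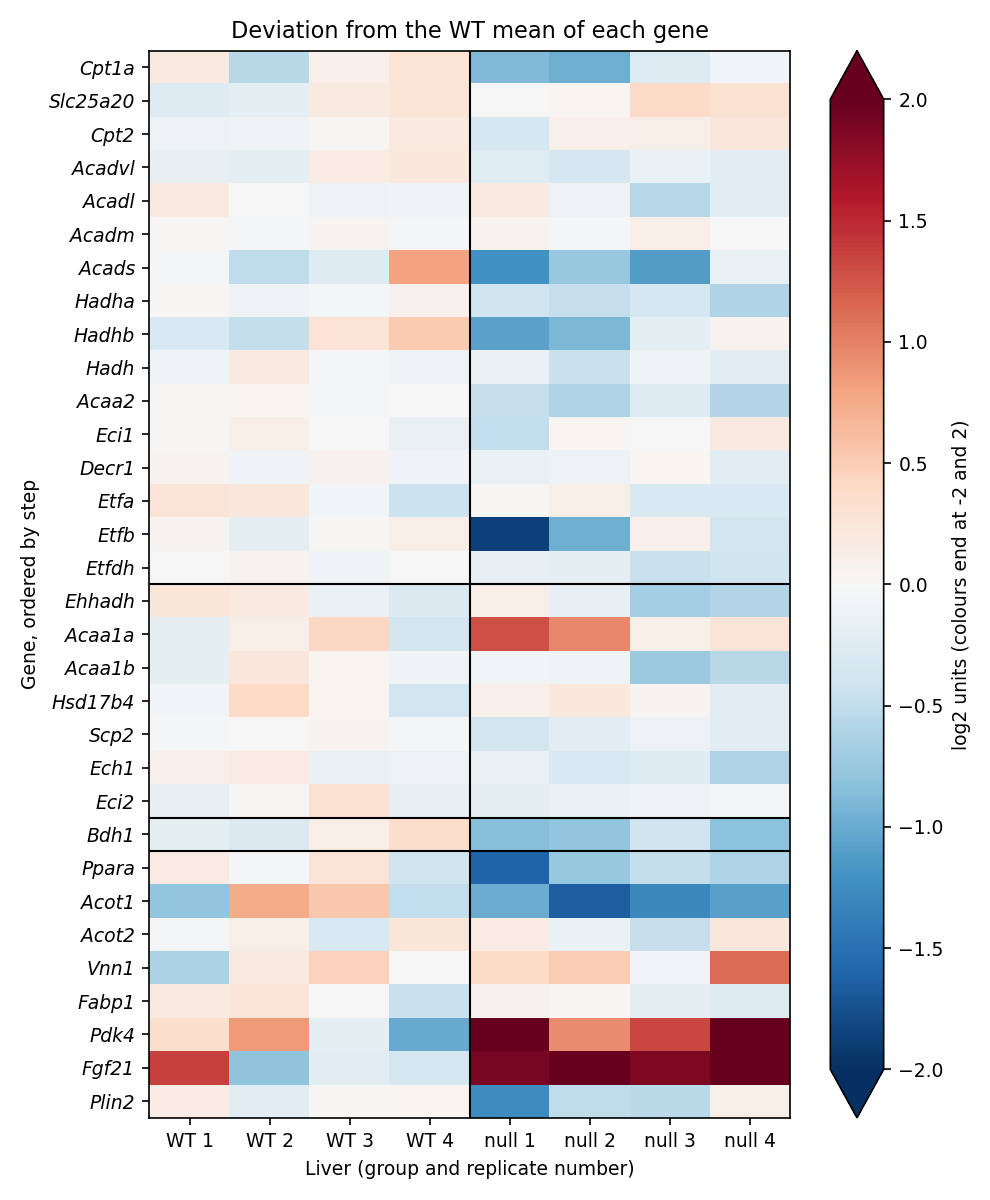
Deviation of each liver from the WT mean of each gene (colour, log2 units, ends of the scale at -2 and 2), with the 32 genes in rows by step and the 8 livers in columns. Null columns are mostly pale blue, with darker cells in Acads, Etfb, Ppara and Acot1, and the rows of Pdk4 and Fgf21 are red in the 4 null livers.

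PPAR alpha acts through DNA, so the promoters of the members were read for its response element, the direct repeat AGGTCANAGGTCA, on both strands of the window from 250 bases before to 50 bases after each RefSeq gene start (GRCm38.p6). Up to 2 mismatches were allowed in the 12 positions other than N. Of the 32 genes 28 had a window; 4 of these held such a match, beside 3.86% of all 32851 windows, and Fabp1 alone was within 1 mismatch, beside 0.554%. The 4 were Fabp1, Etfa, Plin2 and Slc25a20, with differences of -0.09, -0.12, -0.55 and 0.18, none of them called. In Etfa the match (TTACCTTTGCCCT) began 77 bases before the start, and in Slc25a20 (AGGTGAAAGGTCG) it began 6 bases after it. The 250 bases before the start are shown for Fabp1 (chr6:71199629-71199878, plus strand) and Plin2 (chr4:86670060-86670309, minus strand), each 5′ to 3′ on the strand of the gene with the match in capitals; both matches read on the opposite strand, 67 and 225 bases before the start.
Fabp1: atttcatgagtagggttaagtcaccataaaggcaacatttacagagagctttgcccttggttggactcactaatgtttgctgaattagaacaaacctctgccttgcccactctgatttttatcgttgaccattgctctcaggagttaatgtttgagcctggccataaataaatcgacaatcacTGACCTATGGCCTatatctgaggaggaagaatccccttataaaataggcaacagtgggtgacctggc
Plin2: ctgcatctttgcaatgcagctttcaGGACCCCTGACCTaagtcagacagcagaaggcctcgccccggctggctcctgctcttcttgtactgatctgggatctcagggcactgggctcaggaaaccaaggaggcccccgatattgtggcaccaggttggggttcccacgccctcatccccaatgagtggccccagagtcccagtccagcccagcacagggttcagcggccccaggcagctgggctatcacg

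The 3 genes with the largest differences, Acot1, Pdk4 and Fgf21, held no match within 2 mismatches in this window; that says only that these letters were not found there. Their 250 bases before the start are shown for comparison with the pair above, from chr12:84009252-84009501 (plus strand), chr6:5496279-5496528 (minus strand) and chr7:45615491-45615740 (minus strand).
Acot1: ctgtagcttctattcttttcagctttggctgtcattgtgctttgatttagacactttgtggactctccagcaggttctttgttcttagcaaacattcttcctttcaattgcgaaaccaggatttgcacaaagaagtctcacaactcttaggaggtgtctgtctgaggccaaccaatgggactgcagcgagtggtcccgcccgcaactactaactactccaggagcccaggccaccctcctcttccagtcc
Pdk4: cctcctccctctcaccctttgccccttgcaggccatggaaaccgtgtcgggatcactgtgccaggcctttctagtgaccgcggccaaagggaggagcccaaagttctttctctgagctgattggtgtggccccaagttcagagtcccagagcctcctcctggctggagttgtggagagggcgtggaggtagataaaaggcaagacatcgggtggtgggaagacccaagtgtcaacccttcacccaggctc
Fgf21: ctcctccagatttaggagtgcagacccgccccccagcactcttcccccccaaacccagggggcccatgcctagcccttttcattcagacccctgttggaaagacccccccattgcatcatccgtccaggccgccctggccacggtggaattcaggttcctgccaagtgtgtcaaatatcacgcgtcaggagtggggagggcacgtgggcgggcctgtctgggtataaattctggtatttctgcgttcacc

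Hadha and Hadhb, the subunits of 1 enzyme, lie head to head on chromosome 5, and their promoter windows share 228 bases (chr5:30155003-30155230, shown on the plus strand, the strand of Hadhb). Their differences, -0.45 and -0.51 in the probe sets used, were of like size, while the second Hadhb probe set differed by -0.12. No match within 2 mismatches was found in either window.
Hadha/Hadhb: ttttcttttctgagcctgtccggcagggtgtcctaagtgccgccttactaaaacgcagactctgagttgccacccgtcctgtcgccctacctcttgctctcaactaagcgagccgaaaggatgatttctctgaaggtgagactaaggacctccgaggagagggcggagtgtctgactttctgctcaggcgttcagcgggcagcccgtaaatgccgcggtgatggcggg

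Other genes of the pathway, 112 in lists of activation, oxidation, ketone bodies, regulators and targets, gave 85 tested genes, of which 6 were called higher and 8 lower by limma, beside 4.47% and 2.15% of all genes; their median difference was -0.13. With the replicate block 7 and 12 were called. The lists were chosen with earlier results of these data known, so the shares of calls only describe them. The count of lower calls moved with single livers: it was 5 without WT replicate 2, 5 without WT replicate 3, 4 without null replicate 1 and 3 without null replicate 2. Without WT replicates 3 and 4 together, 1 was called higher and 10 lower; the calls of Acot4, Acox2, Pparg, Slc22a5, Slc25a17, Angptl4 and Txnip were then lost and those of the other 7 genes, named below, kept. Quantile normalization gave 14 lower calls and centring on the tested genes 15.

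Of 21 tested targets and lipid droplet genes, 7 were called lower and 1 higher, beside 2.15% and 4.47% of all genes. Of the 21 differences 16 were below 0, with a median of -0.92. As this list was chosen with earlier results of these data known, setting its share beside that of all genes is no independent test. Cyp4a14, a fatty acid omega-hydroxylase and a classic PPAR alpha target, measured 11.13, 11.68, 11.82 and 11.20 in WT and 8.21, 4.43, 7.96 and 7.96 in null livers. It fell 19.9-fold (difference -4.32 ± 0.72, SE, limma adjusted p = 0.00658), and 10.6-fold without null replicate 2, its lowest liver. Its relatives Cyp4a31 and Cyp4f15 fell 5.74-fold (adjusted p = 0.00898) and 3.76-fold (adjusted p = 0.00117) by limma, with no overlap of the groups. The null values of Cyp4a31 were 3.61, 3.29, 3.38 and 5.35, mostly close to the low-value limit of 3.38, so the size of its fall is uncertain. Cyp4a12a, a relative known for higher expression in male liver, rose from values all below the low-value limit (1.59 to 2.91) to 4.65, 4.85, 5.54 and 7.55. It passed the filter on low values only through the null livers. Its difference of 3.46 (limma adjusted p = 0.00663) was 2.83 without null replicate 4 and 2.27 with low values set to the limit. The Cyp4a genes are close copies of each other, so a probe set may pick up more than its named gene.

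Angptl4, a secreted inhibitor of lipoprotein lipase, measured 8.33, 8.57, 9.14 and 9.29 in WT and 5.84, 6.11, 7.58 and 7.69 in null livers and fell 4.08-fold (limma adjusted p = 0.0223); the call was lost without WT replicate 3, WT replicate 4, null replicate 1 or null replicate 2, with adjusted p up to 0.0681. Fads2, the delta-6 desaturase, fell 2.64-fold (limma adjusted p = 0.0171, and 0.052 without null replicate 2). The other two, Fads1 (delta-5 desaturase) and Txnip, both fell 1.89-fold, with adjusted p of 0.0397 and 0.0369 by limma. The Fads1 call was lost without any liver but WT replicate 4 (adjusted p up to 0.0991), and the Txnip call without any liver but WT replicate 1 and null replicate 4 (up to 0.105).

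Among the 12 activation and carnitine genes, Slc22a5, the carnitine importer of the plasma membrane, rose 2.55-fold (4.39 ± 0.38 to 5.74 ± 0.48, SD, n = 4 each, limma adjusted p = 0.0183), and Acsl5, an acyl-CoA synthetase, fell 1.64-fold (limma adjusted p = 0.0315, and up to 0.0911 when any liver but WT replicate 3 and null replicate 3 was left out). Of 21 peroxisomal genes 3 were called higher and 0 lower, beside 4.47% and 2.15% of all genes. Below 0 were 12 of the 21 differences, 3 of them at an unadjusted limma p below 0.05, beside 597 of all 7534 genes. With the replicate block Abcd2, a peroxisomal fatty acid transporter, was called lower (-0.97, adjusted p = 0.0485 in limma). Acox2, the oxidase for branched chains and bile acid intermediates, rose 2.03-fold (10.12 ± 0.22 to 11.14 ± 0.22, SD, n = 4 each, limma adjusted p = 0.0111). Slc25a17, a carrier of coenzyme A and other cofactors in the peroxisomal membrane, rose 2.73-fold (limma adjusted p = 0.0142), a call that was lost with the mean of its probe sets. Acot4, a thioesterase, rose 1.73-fold (limma adjusted p = 0.0315), and the call was lost when WT replicate 3, WT replicate 4 or any null liver was left out. It was also lost when each gene took the mean of all its probe sets.

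Pparg, the relative of Ppara that drives lipid storage, was the only one of 15 regulators called: it rose 2.61-fold (4.77 ± 0.59 to 6.15 ± 0.32, SD, n = 4 each, limma adjusted p = 0.0226), with adjusted p up to 0.0711 when WT replicate 2, WT replicate 3 or null replicate 1, 2 or 4 was left out. The 12 other mitochondrial genes and the 4 ketone body genes held no call, beside 6.62% of all genes. At an unadjusted limma p below 0.05 there were 3 and 2, beside 22.9% of all genes. The hydratase Echs1 and the dehydrogenase Hsd17b10, which work in the same cycle as the members, differed by -0.01 and 0.00. The ketone body thiolase Acat1 differed by -0.11 and Oxct1, which uses ketone bodies outside the liver, by 0.54.

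**Figure D4:**
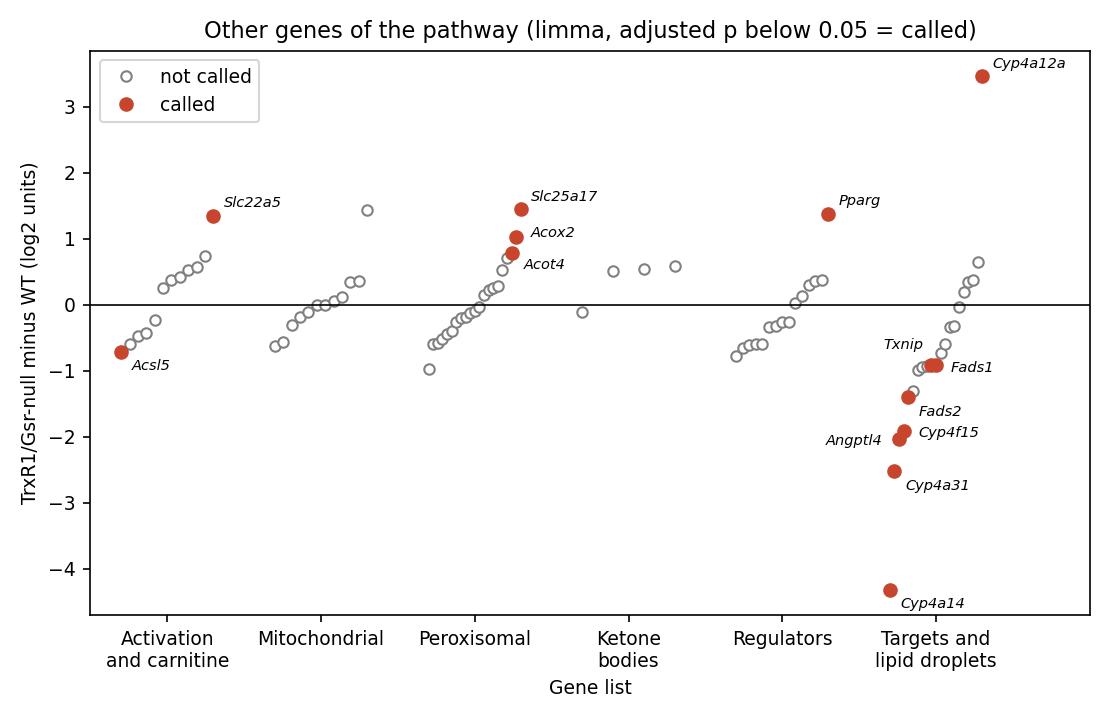
Difference between TrxR1/Gsr-null and WT livers (vertical axis, log2 units) of the 85 other tested genes of the pathway, by list and in order of size within each list; filled points were called by limma and are named. The 7 lower calls among the targets, Cyp4a14 the lowest at -4.32, stand out, and the mitochondrial and ketone body lists hold no filled point.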

How the data were processed

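Liver RNA of 8 mice was measured on 1 Affymetrix array each, labelled as biological replicates. The authors deposited log2 values per probe set, made with GCRMA per the submitters' processing notes, with no version or settings stated; the log2 scale was read from the values (0.53 to 14.61). GCRMA compresses values near background, so folds of dim genes depend on it. Precision is limited by the 4 arrays per group.

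Of 22690 probe sets, 64 were controls, 20380 had 1 gene symbol, 691 several and 1555 none. The gene identifiers of 20364 probe sets matched RefSeq. A gene took the probe set of highest mean over all arrays, with the _x_at kind set aside where another existed. The dimmest 40% of genes were dropped, except those with 4 or more arrays above the limit of 3.38. The test was limma 3.58.1 (R 4.3.3; lmFit, eBayes, two-sided, Benjamini-Hochberg, threshold 0.05), checked on simulated data. Promoters came from a RefSeq table (GRCm38.p6).

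Replicate numbers are in the sample titles. Deviations from the group means correlated for all 4 same-numbered pairs (0.21, 0.37, 0.23 and 0.31), so a fit with the replicate block was run; other pairs within replicates 1 and 2 or within 3 and 4 correlated at 0.20 to 0.40, and pairs across these sets at -0.40 to -0.21. The highest correlation between arrays was 0.994.

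All 32 members were named, and from each pathway list the called genes, at most 5 per direction by adjusted p, or the first 2 tested where none was called; Fads1 and Txnip were added after their values were seen. The members and lists were chosen with earlier results of these data known. Alternatives were the filter, low values, probe sets, scaling, array weights, prior, blocks and left-out arrays.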

Additional observations from a re-analysis of the deposited data

Results flagged for a closer look

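The values of the 32 genes in each group of 4 livers were searched for a liver that stood apart from the other 3, in 64 groups. Chance alone marks about 1 in 20 groups, and 2 were marked. Fgf21 in null replicate 4 was 9.13, where the other 3 null livers lay between 4.33 and 4.78, and the gap was 0.906 of the range. Bdh1 in null replicate 3 was 10.54, where the others lay between 10.10 and 10.15, and the gap was 0.883 of the range; this liver was the null liver nearest to the WT livers. In null replicate 4 the Pdk4 value, 8.57, and the Vnn1 value, 10.53, were also the highest among null livers, without standing apart by that measure.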

How the results depend on the processing

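The members were tested again under 23 alternatives, except Acot2 and Fgf21, which a stricter filter drops, and Acaa1a and Eci2, which have only probe sets that 1 alternative sets aside. Of 732 member and alternative combinations, 23 gave a call, for 9 members; 23 members were called under none, 26 kept 1 sign throughout, and the sign of Cpt2, Acadm, Eci1, Hsd17b4, Acot2 and Fabp1 changed under some. With the replicate block, 0 members were called higher and 1 lower. Members called higher and lower numbered 0 and 2 after quantile normalization, 1 and 2 after centring on the median of the tested genes (an alternative chosen after seeing the data), 2 and 5 with array weights, 1 and 2 with a trended robust prior, 1 and 2 with array sets as a block, and 1 and 0 within replicates 1 and 2; with a replicate left out each ranged from 0 to 1 (Pdk4 without WT replicate 2, Fgf21 without null replicate 4, Acot1 without WT replicate 1). Member probe sets called higher and lower numbered 0 and 1 after quantile normalization, 0 and 2 after that centring, 3 and 4 with array weights, 0 and 2 with the trended robust prior, 1 and 2 with array sets as a block, 1 and 0 within replicates 1 and 2, and 0 to 1 each with a replicate left out. Pathway genes called higher numbered 3 within replicates 1 and 2, 2 within replicates 3 and 4, 1 without WT replicates 3 and 4, and 4 to 6 with a replicate left out; those called lower numbered 14 after quantile normalization, 15 after that centring, 21 with array weights, 17 with array sets as a block, 2 within replicates 3 and 4, and 3 to 9 with a replicate left out. The median member difference, -0.23, was -0.27 without the _x_at, _s_at and _a_at probe sets, -0.29 after median centring, -0.39 after centring on the tested genes, -0.19 within replicates 1 and 2 and -0.28 without WT replicates 3 and 4. The members' median stayed below 0 under the 23 alternatives. The subsets hold fewer arrays; the cause of the other changes was not tested. Of 316 combinations of a called pathway gene with an alternative, 256 kept the call, 60 lost it and 0 reversed. Low signal limits Fgf21, Acot2, Cyp4a12a and Cyp4a31, which lie below or near the limit in at least 1 group.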
